A study of Mus musculus with 16 samples.

Results

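The 10 genes described here, Dusp1, Dusp2, Dusp4, Dusp5, Dusp6, Dusp7, Dusp8, Dusp9, Dusp10 and Dusp16, encode the MAP kinase phosphatases. Their m6A peaks were taken from the deposited peak lists of 8 MeRIP-seq IP libraries by a rule that used no score: a peak belonged to a gene where it overlapped an exon of that gene on the same strand (GRCm39, GENCODE M39). By this rule 173 of 169564 listed peaks belonged to 8 of the 10 genes, and Dusp2 and Dusp9 had none. Among all 21770 annotated protein-coding genes, 11509 had a peak in any list. The lists came from cerebral cortical peri-infarct tissue of male C57BL/6J mice aged 6 to 8 weeks, with no allele or transgene named. In the 3 MCAO/R groups a nylon thread closed the right middle cerebral artery for 2 h, and tissue was taken after reperfusion of 0 h (MCAO/R-0 h), 6 h (MCAO/R-6 h) or 24 h (MCAO/R-24 h). The Sham group had the same surgery without the thread. Each group had 6 mice and 2 IP libraries with 1 list each, and how the mice were divided over the libraries is not given in the sources used here. The 8 input libraries were not analysed here.

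MAP kinases (ERK, JNK and p38) are switched on by phosphorylation of a threonine and a tyrosine, and the MAP kinase phosphatases remove both phosphates. Dusp1, Dusp2, Dusp4 and Dusp5 encode nuclear enzymes whose genes are induced by growth factors and stress, Dusp6, Dusp7 and Dusp9 encode cytoplasmic enzymes that prefer ERK, and Dusp8, Dusp10 and Dusp16 encode enzymes that act mainly on JNK and p38. m6A is a methyl mark on adenosines of mRNA that is bound by reader proteins such as the YTHDF family, and it is usually dense around stop codons and in long last exons.

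A peak is a stretch of transcript where reads of the m6A antibody pull-down exceeded input reads in the authors' peak caller. The lists hold positions, strand and a score of undefined scale, and no read counts, so the depth is unknown, and the absence of a peak means only that none was called. The score was used only as a rank within its list, given as a percentile from 0 (lowest) to 100. A change in methylation, in RNA level or in the cells of the tissue cannot be told apart in these lists. Whether the 2 libraries of a group came from separate animals is not stated, so the spread between them may be technical. The lists held 18775 to 24078 peaks. These are more than the confident peaks that the paper reports for each sample. How that smaller set relates to the deposited lists is not stated in the sources used here. Overlapping peaks of the 8 lists (at least 1 shared exonic base) were joined into 52776 regions, 46 of them in these genes. Regions are numbered below from the 5' to the 3' end of each transcript.

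Sequences from the regions described most fully are shown first, read 5' to 3' from the GENCODE M39 transcripts, with RRACH matches in capitals. RRACH, the usual m6A context, is A or G, again A or G, then A and C, then A, C or T; it was searched on the transcript strand only. The 1st is the part of Dusp16 around the start codon nearest to the middle of the stretch shared by all 8 lists, 13 nt before the first base of the start codon at its central A (chr6:134738035-134738063, minus strand, exon 2). The 2nd is the coding stretch of Dusp16 that 7 of 8 lists shared, codons 259 to 308 (chr6:134695906-134697497, minus strand, spliced across the junction of exons 6 and 7). The 3rd ends across the stop codon of Dusp10 (chr1:183806695-183806723, plus strand, exon 4), in the region listed after occlusion and in neither Sham list. Its marked match lay under the peaks of the 2 lists at 6 h only; it is the match nearest to the stretch that 5 lists shared, which itself held none. The 4th is a coding stretch of Dusp1, codons 282 to 323 (chr17:26725389-26725513, minus strand, exon 4), in the region missing at MCAO/R-0 h. Sham replicate 1 and both 6 h lists covered all of it, and the 2 lists at 24 h covered a part each. The 5th is the coding site of Dusp8 nearest the middle of the stretch that all 8 lists shared (chr7:141636148-141636176, minus strand, exon 7), and the 6th the 50 coding bases of Dusp10 that all 8 lists shared (chr1:183769634-183769683, plus strand, exon 2).
Dusp16 start codon region: ggtggggaaagaGGACTtattgttgtcat
Dusp16 coding region: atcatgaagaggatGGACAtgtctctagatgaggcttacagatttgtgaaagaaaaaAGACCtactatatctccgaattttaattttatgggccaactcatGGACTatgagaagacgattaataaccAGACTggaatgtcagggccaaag
Dusp10 stop codon region: tcatgggcatggAGACAgttgtgtgacaa
Dusp1 last exon region: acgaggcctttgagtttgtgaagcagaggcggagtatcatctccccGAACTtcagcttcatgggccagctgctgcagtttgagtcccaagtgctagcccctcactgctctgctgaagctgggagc
Dusp8 coding region: tggtctgggcctGAACTttggAGACAcgg
Dusp10 coding region: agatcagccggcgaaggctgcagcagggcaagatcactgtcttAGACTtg

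The number of peaks in the 10 genes was 17 and 19 in the Sham lists, 18 and 23 at MCAO/R-0 h, 24 and 24 at MCAO/R-6 h, and 23 and 25 at MCAO/R-24 h. The mean was 18 ± 1.41 (SD, n = 2) in Sham, 20.5 ± 3.54 (SD, n = 2) at 0 h, 24 ± 0 (SD, n = 2) at 6 h and 24 ± 1.41 (SD, n = 2) at 24 h. Both lists at 6 h and both at 24 h lay above both Sham lists, and the 0 h lists overlapped them. As a share of all peaks of the list, these genes held 0.0905% and 0.0943% in Sham, 0.0907% and 0.0955% at 0 h, 0.108% and 0.103% at 6 h, and 0.121% and 0.112% at 24 h. The exonic bases under their peaks were 2850 and 2466 nt in Sham, 3375 and 3850 nt at 0 h, 4263 and 4482 nt at 6 h, and 4147 and 4750 nt at 24 h, so that every MCAO/R list covered more of these transcripts than either Sham list. Of all exonic bases under the peaks of a list this was 0.0921% and 0.0736% in Sham, 0.0988% and 0.0858% at 0 h, 0.113% and 0.108% at 6 h, and 0.129% and 0.123% at 24 h, where the 0 h lists again overlapped Sham. These sums are given without a test.

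**Figure D1:**
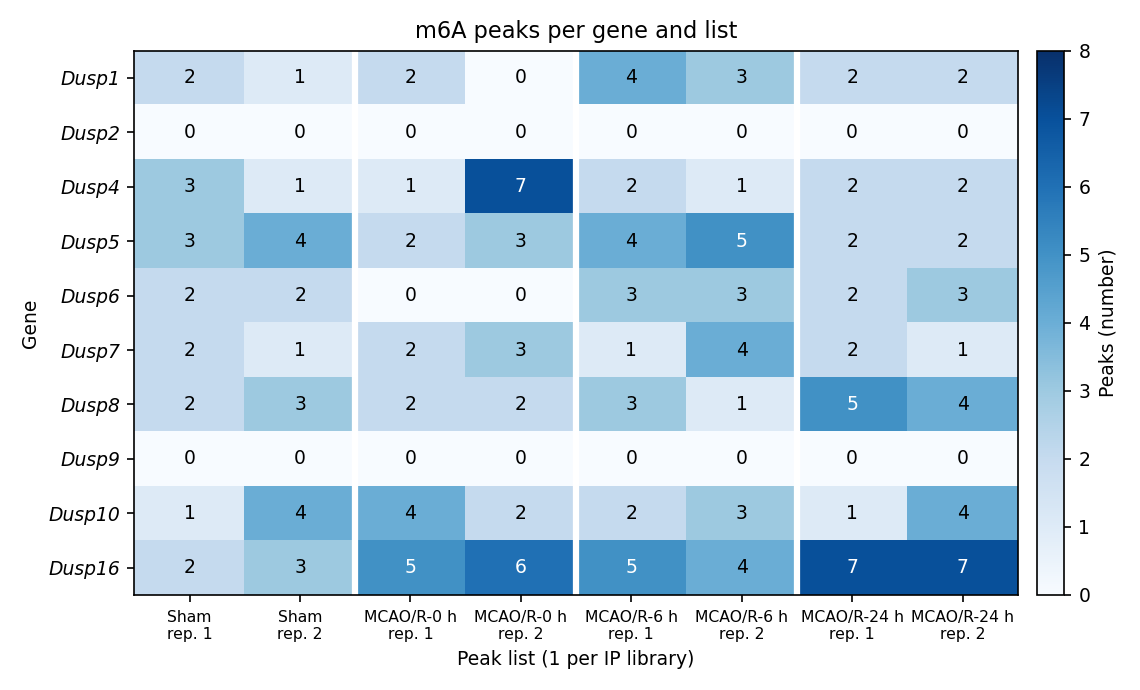
Number of m6A peaks (cell values and colour) of each of the 10 genes (rows) in each of the 8 peak lists (columns, 2 per group). Dusp2 and Dusp9 have 0 in every list, Dusp6 has 0 in both MCAO/R-0 h lists, and Dusp16 goes from 2 and 3 peaks in Sham to 7 and 7 at MCAO/R-24 h.

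Among the nuclear, inducible phosphatases, Dusp1 (MKP-1, which acts on p38, JNK and ERK) had peaks in 7 of 8 lists, Dusp4 and Dusp5 in all 8, and Dusp2 in none. Dusp1 had 2 and 1 peaks in Sham, 2 and 0 at 0 h, 4 and 3 at 6 h, and 2 and 2 at 24 h. Dusp4 had 3 and 1 in Sham and 1 to 2 in 5 of the 6 MCAO/R lists, with 7 in MCAO/R-0 h replicate 2. This library also had the longest of the 8 lists, with 24078 peaks. Dusp5, an ERK phosphatase of the nucleus, had 3 and 4 peaks in Sham, 2 and 3 at 0 h, 4 and 5 at 6 h, and 2 and 2 at 24 h.

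Among the cytoplasmic ERK phosphatases, Dusp6 had 2 and 2 peaks in Sham, none in either list at 0 h, 3 and 3 at 6 h, and 2 and 3 at 24 h. It was the only one of the 8 genes with peaks that was listed in both Sham libraries and in neither library of a reperfusion time. Over all genes with a peak in a Sham or MCAO/R-0 h list, 1.64% went missing in this way at 0 h. Dusp7 had a peak in every list, 1 to 4 each. Dusp9, on the X chromosome, had none.

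Among the JNK and p38 phosphatases, Dusp8, Dusp10 and Dusp16 each had a peak in every list. Dusp16 held the most, 39 of the 173 peaks, and its transcript was the longest of the 10 (5219 nt). It had 2 and 3 in Sham, 5 and 6 at 0 h, 5 and 4 at 6 h, and 7 and 7 at 24 h, with no overlap between Sham and any reperfusion time. Of the 4351 genes with a peak in every list, 1.72% had more peaks in all 6 MCAO/R lists than in either Sham list. Its covered exonic bases were 375 and 575 nt in Sham and 800 to 1175 nt in the 6 MCAO/R lists. The share of all genes that differ in this way was not counted. The exonic bases under all peaks of a list were 3093495 and 3351914 nt in Sham and 3224676 to 4485647 nt in MCAO/R. Dusp8 had 2 and 3 peaks in Sham, 2 and 2 at 0 h, 3 and 1 at 6 h, and 5 and 4 at 24 h, so that only the 24 h lists lay above Sham; 2 of the 6 genes of this family with a peak in every list had more peaks in both 24 h lists than in either Sham list, beside 9.29% of all such genes. Dusp10 had 1 to 4 peaks per list, with the groups overlapping. In all, 6 of the 8 genes with a peak had one in every list, beside 4093 of 11509 protein-coding genes with a peak.

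Many of these regions were not found again in another list. Of the 46 regions, 24 were found in 1 list only (52.2%, beside 52.6% of all regions) and 7 in all 8 lists (15.2%, beside 8.97%). The regions found in 1 list had a median score rank of 16.2 (range 2.31 to 65.1), beside 19.8 for all such regions. The 7 regions in all lists had median ranks over the lists of 56.0 to 90.9, with a median of 75.1 beside 82.8 for all 4735 regions found in all lists. Between the 2 lists of a group, 9 of 19 regions were shared in Sham (47.4%, beside 36.1% of all regions), 9 of 23 at 0 h (39.1%, beside 37.9%), 14 of 22 at 6 h (63.6%, beside 39.05%) and 13 of 26 at 24 h (50%, beside 36.7%).

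The peaks lay mostly in last exons. Of 171 peaks that could be placed on the transcript with the longest coding sequence, 126 had their centre in the last exon (73.7%, beside 58.1% of all peaks of protein-coding genes), 42 within 200 nt of the stop codon (24.6%, beside 20.4%), 95 in the coding sequence (CDS; 55.6%, beside 60.8%), 62 in the 3' UTR (36.3%, beside 34.2%) and 14 in the 5' UTR (8.19%, beside 4.94%). Of the 13 regions found in 5 or more lists, 10 touched the last exon and 6 held the stop codon. These 6 were the Dusp1, Dusp4, Dusp5, Dusp7, Dusp10 and Dusp16 regions that the map shows across the stop codon. A region is the union of its peaks, so it can hold the stop codon where single peaks do not. The stretch that most of its lists shared lay in the 3' UTR in Dusp4, Dusp5, Dusp7 and Dusp10, and in the CDS in Dusp1 and Dusp16. The Dusp6 regions in 5 lists ended 115 nt or more before it, and the recurrent Dusp8 region ended 228 nt before it. All 8 genes with peaks had at least 1 in the last exon, in all 8 lists for Dusp4, Dusp5, Dusp7 and Dusp8, in 7 for Dusp1 and Dusp16, and in 5 for Dusp6 and Dusp10.

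**Figure D2:**
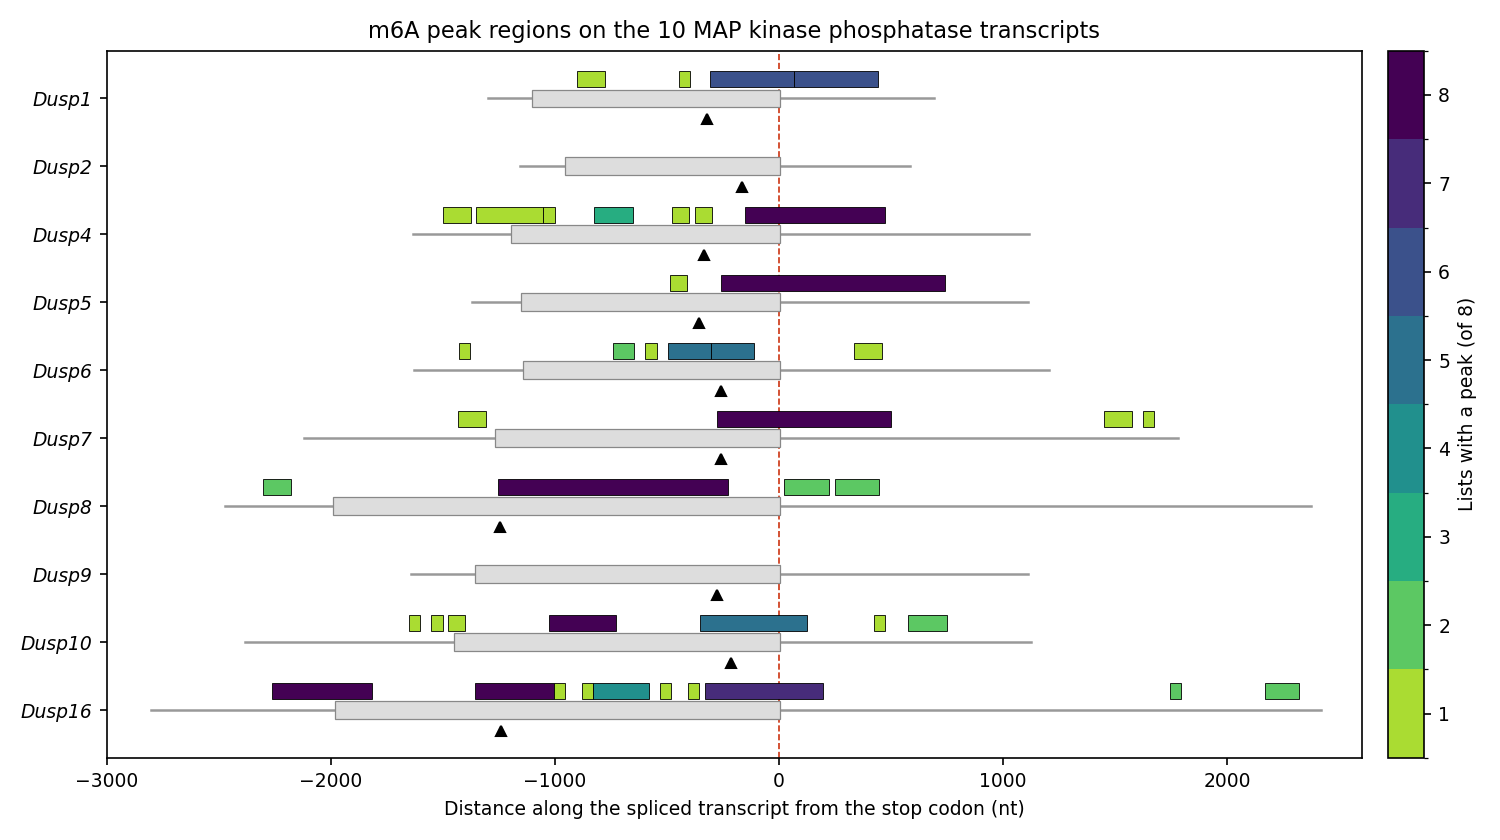
Regions of m6A peaks (coloured boxes, colour giving the number of lists with a peak) on the spliced transcript of each gene, with the coding sequence as a grey box, UTRs as a line, the catalytic codons as a triangle and the distance from the stop codon in nt on the x axis. Joined over the lists, the regions found in all 8 lists reach across the stop codon in Dusp4, Dusp5 and Dusp7. The stretches that most lists shared in these 3 genes lie in the 3' UTR. The other regions in all 8 lists lie in the coding sequence in Dusp8, Dusp10 and Dusp16, and at the start codon in Dusp16.

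The catalytic signature of these enzymes, the histidine and cysteine followed after 5 residues by an arginine, is encoded in the last exon of Dusp1, Dusp2, Dusp4, Dusp5, Dusp6, Dusp7, Dusp9 and Dusp10, and in exon 6 of 7 in Dusp8 and Dusp16. A peak covered at least 1 base of these codons in 5 lists for Dusp6 (codons 292 to 299) and Dusp7 (codons 333 to 340), in 4 lists for Dusp16 (codons 243 to 250), in 1 list each for Dusp4, Dusp8 and Dusp10, and in none for Dusp1 and Dusp5. In Dusp1 the region began at codon 265, directly after the signature (codons 257 to 264).

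RRACH matches were counted in the regions and in the rest of the same transcripts, without a test. The regions held 142 matches over 9904 nt (14.3 per kb), beside 202 over 17625 nt outside (11.5 per kb), a ratio of 1.25. The ratio was above 1 in Dusp1, Dusp4, Dusp5, Dusp7 and Dusp8, for example 17.7 against 6.40 per kb in Dusp5, and below 1 in Dusp6, Dusp10 and Dusp16, for example 12.7 against 14.2 per kb in Dusp16. GGACT, a form of RRACH, came to 20 matches in the regions and 16 outside, a ratio of 2.22. Of 44 regions on these transcripts 36 held a RRACH match. The shared stretch of the Dusp16 region across the stop codon (50 nt in 7 lists) held none, and 50.2% of windows of that length along all protein-coding transcripts hold one. In windows of 29, 125 and 150 nt, the lengths of 5 of the 6 sequences above, a match is found in 31.9%, 82.6% and 87.6%, so a match in a long stretch is the rule. The sequences of 29 nt were cut around a match, with 12 nt on each side, and hold one by construction. A match is a description of letters and not a mapped m6A site.

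A region was called gained at a reperfusion time where both of its lists held a peak and neither Sham list did, and lost in the reverse case. With 2 lists against 2, an exact test has 3 splits and no p under 0.333, so the calls are counts set beside those of all regions. At 0 h, 1 of 33 regions of these genes was gained, beside 3.84% of all regions, and 2 were lost, beside 1.87%. At 6 h, 2 of 29 were gained, beside 4.94%, and none was lost, beside 2.03%. At 24 h, 1 of 31 was gained, beside 3.79%, and none was lost, beside 2.76%. Counts of this size lie near the background, so they are no result about the family, and the regions are described one by one. In the higher-scoring 50% of each list, only 1 of these 6 calls had its gene called the same way at the same time, Dusp10 at 6 h.

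Dusp10, also called MKP-5, had the region gained at both 0 h and 6 h. It was region 5 (chr1:183801333-183806841), from codon 367 in exon 3 through the stop codon to 123 nt after its first base, with 7 RRACH matches. No Sham list held a peak there. The score ranks were 35.4 and 65.6 at 0 h and 88.0 and 75.6 at 6 h, and at 24 h it was listed in replicate 2 alone (42.7). The covered bases were 100 and 125 nt at 0 h, 475 and 325 nt at 6 h, and 150 nt in the 1 list at 24 h. The 6 h lists thus had the widest and highest-ranking peaks. All 5 lists shared 75 nt of the 3' UTR, 24 to 98 nt after the first base of the stop codon. That stretch held no RRACH match.

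Dusp1 region 4 (chr17:26725189-26725563; codon 265 to 67 nt after the first base of the stop codon, in exon 4) was lost at 0 h. It ranked 47.4 and 40.9 in Sham, was in neither 0 h list, and ranked 82.8 and 72.8 at 6 h and 44.4 and 61.4 at 24 h. Both 6 h ranks were above every other value of this region. The peaks of the 2 Sham lists did not overlap each other and were joined through peaks of other lists. Its covered bases were 175 and 50 nt in Sham, 325 and 175 nt at 6 h, and 125 and 200 nt at 24 h. Region 5 follows it without a gap in the 3' UTR (68 to 442 nt after that base) and was found in 6 lists, 1 at 0 h among them. It ranked 76.9 in Sham replicate 1, 88.4 in MCAO/R-0 h replicate 1, 71.2 and 87.4 at 6 h, and 77.4 and 77.6 at 24 h, with no peak in Sham replicate 2 or MCAO/R-0 h replicate 2. The absence at 0 h was thus of the coding part in both lists and of the whole transcript in 1.

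Dusp6 (MKP-3, a feedback inhibitor of ERK whose gene is itself induced by ERK signalling) lost region 4 at 0 h (chr10:99100653-99101536, codons 216 to 280 at the end of exon 2). Its ranks were 5.84 and 16.4 in Sham, 86.1 and 49.6 at 6 h and 46.9 in replicate 2 at 24 h. The Sham peaks were low in rank, with 75 and 16 nt of these exons covered, and did not overlap each other. The peak of MCAO/R-6 h replicate 2, of rank 49.6, also covered 16 nt. Some peaks of region 4, that of Sham replicate 2 among them, continue into an exon of another annotated transcript. That exon is not counted in these lengths. Region 5 (codons 280 to 343, exon 3) followed the same lists except 2. It was absent from Sham replicate 1 and ranked 64.7 in Sham replicate 2, 63.5 and 76.8 at 6 h, and 66.7 and 67.6 at 24 h, with no peak at 0 h.

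Dusp16 (MKP-7, a JNK phosphatase) gained region 6 at 6 h (chr6:134695431-134695680; codons 384 to 467, exon 7). It ranked low, 12.9 and 19.5 at 6 h, 28.7 in MCAO/R-0 h replicate 2 and 23.6 in MCAO/R-24 h replicate 2. The covered bases were 75 to 125 nt. Where each list was cut to its 18775 peaks of highest score, the length of the shortest list, this call was gone. Its region across the stop codon (region 9, chr6:134694656-134695180, codons 550 to the last, 660, and 193 nt after the first base of the stop codon) was listed in 7 lists and missing in Sham replicate 1. It ranked 54.0 in Sham replicate 2, 55.9 and 69.5 at 0 h, 63.7 and 86.6 at 6 h, and 48.4 and 62.7 at 24 h, with the Sham value inside the range of the others.

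Dusp8, a phosphatase with high expression in brain, gained region 4 at 24 h (chr7:141635152-141635351, 3' UTR, 248 to 447 nt after the first base of the stop codon). It was listed in the 2 MCAO/R-24 h lists alone, with ranks of 25.7 and 66.3 and covered bases of 125 and 175 nt. The RRACH match nearest the middle of their shared stretch lies in an A-rich run, ggggggaatgaaAAACAaaaaaaaaaaaa (chr7:141635212-141635240, minus strand). The region directly before it, region 3, was listed in MCAO/R-0 h replicate 2 (71.6) and MCAO/R-24 h replicate 2 (65.9).

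**Figure D3:**
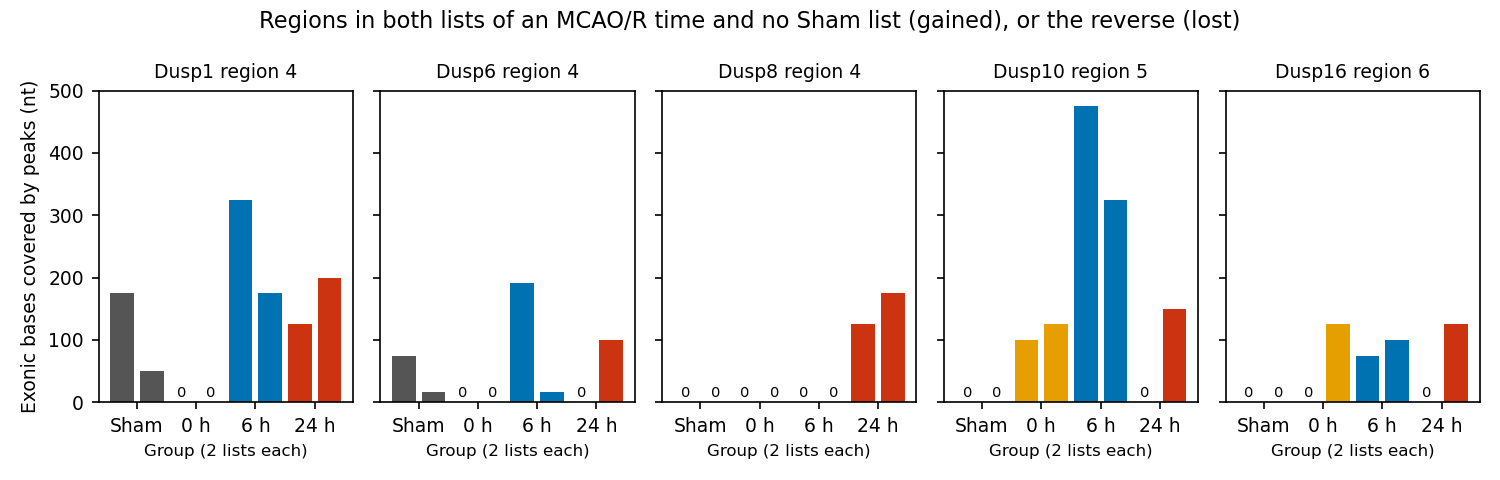
Exonic bases (nt) under peaks in each list (bars, 2 per group, 0 where no peak was listed) for the 5 regions listed in both libraries of a reperfusion time and no Sham library, or the reverse. Dusp1 region 4 and Dusp6 region 4 are at 0 in both 0 h lists, Dusp10 region 5 is widest in the 6 h lists (475 and 325 nt), and Dusp8 region 4 appears in the 24 h lists alone.

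The 7 regions of these genes found in all 8 lists, among 4735 such regions of all genes, allowed a test of the score rank. The rank of the highest-scoring peak of each list was compared among the 4 groups by exact permutation over all 105 ways to pair the libraries (one-sided for a larger spread between groups, smallest possible p = 0.00952), and between the 2 Sham and the 6 MCAO/R lists by a two-sided exact permutation test (28 draws, smallest possible p = 0.0357). After Benjamini-Hochberg adjustment over the 4735 regions no region of any gene passed in either test (0% of all regions in both). With these smallest possible p-values, an adjusted p under 0.05 needs a large share of the 4735 regions to reach them together. The adjusted p therefore cannot decide whether a single region differs. Without adjustment, 2 of the 7 had p under 0.05 among the 4 groups, beside 316 of all regions (6.67%). Against Sham, 1 of the 7 was higher in MCAO/R, beside 5.77% of all regions, and none was lower, beside 0.591%.

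The Dusp16 start codon region (region 1, chr6:134737871-134738320, exon 2, from 284 nt before the start codon through codon 56) was the member with the lowest p in both tests. Its score ranks were 54.6 and 57.4 in Sham, 82.1 and 69.7 at 0 h, 87.5 and 90.4 at 6 h, and 87.7 and 82.4 at 24 h. All 6 MCAO/R values lay above both Sham values, which holds for 6.84% of all regions. The mean rank was 83.3 ± 7.40 (SD, n = 6) in MCAO/R and 56.0 ± 1.93 (SD, n = 2) in Sham, a difference of 27.3 percentile points. The exact permutation test gave p = 0.0357 (adjusted p = 0.562), the smallest it can give, and p = 0.0190 among the 4 groups (adjusted p = 0.683). The difference did not pass the correction for 4735 regions, which a single region cannot pass by itself with so few lists.

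The covered bases of the Dusp16 start codon region were 225 and 175 nt in Sham, 375 and 275 nt at 0 h, 375 and 400 nt at 6 h, and 375 and 250 nt at 24 h. All MCAO/R lists again exceeded both Sham lists, as in 2 of the 7 regions of these genes and 4.73% of all regions. All 8 lists shared 175 nt, from 84 nt before the first base of the start codon to 90 nt after it. This region held 1 peak per list. It is the one recurrent region of these genes that lies at the 5' end of the message.

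The other region with a wider cover in every MCAO/R list was that of Dusp4 (MKP-2, a nuclear phosphatase of ERK and JNK), region 7 (chr8:35285784-35286408, from 151 nt before the stop codon to 473 nt after its first base, in exon 4). It covered 150 and 50 nt in Sham, 175 and 375 nt at 0 h, 275 and 450 nt at 6 h, and 225 and 175 nt at 24 h. Its score ranks were 34.5 and 1.37 in Sham, 59.2 and 65.7 at 0 h, 56.9 and 79.5 at 6 h, and 68.3 and 28.5 at 24 h. The 0 h and 6 h values lay above both Sham values, and 1 of the 24 h values lay between them. The peak of Sham replicate 2 overlapped neither peak of Sham replicate 1, so these ranks are not all of the same bases. The mean difference between MCAO/R and Sham was 41.7 points, with 23.4 points of SD between the Sham lists, and did not reach the threshold (p = 0.0714, two-sided exact permutation test, adjusted p = 0.591).

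Dusp7 region 2 (chr9:106250868-106251642, codon 331 through the stop codon to 499 nt after its first base, in exon 3) had ranks of 86.1 and 84.9 in Sham, 91.7 and 90.4 at 0 h, 78.3 and 88.1 at 6 h, and 69.4 and 74.5 at 24 h. The 0 h lists lay above both Sham lists and the 24 h lists below both. These ranks are not all of the same bases: both Sham values and that of MCAO/R-24 h replicate 1 were of 3' UTR peaks, and that of MCAO/R-24 h replicate 2 was of its only peak there, in the CDS. The CDS peak in a Sham list ranked 70.5, below that 74.5. Among the 4 groups the one-sided exact permutation test gave p = 0.0476 (adjusted p = 0.706). Its covered bases went from 50 to 725 nt, with 50 nt in MCAO/R-6 h replicate 1 and in MCAO/R-24 h replicate 1 and 725 nt in MCAO/R-0 h replicate 1. Where the lists held more than 1 peak in it, they ran on both sides of the stop codon.

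Dusp5 region 2 (chr19:53529490-53530489, codon 298 to 738 nt after the first base of the stop codon, in exon 4) was a chain of 24 peaks over 1000 nt. It ranked 73.0 and 75.4 in Sham, 70.5 and 74.8 at 0 h, 66.6 and 79.4 at 6 h, and 88.0 and 91.9 at 24 h. The 24 h lists lay above the other 6. Over all regions, 25% had both 24 h lists above both Sham lists, and the share above all other lists was not counted. The highest-ranking peaks were 475 and 650 nt wide at 24 h and 225 to 325 nt in the other lists. The difference among the 4 groups did not reach the threshold (p = 0.133, one-sided exact permutation test, adjusted p = 0.768). All 8 lists shared 100 nt of the 3' UTR, and the RRACH match nearest its middle is gcgagcttcgctGGACCaggacgggagaa (chr19:53530110-53530138, plus strand).

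The remaining regions in all lists were coding. Dusp8 region 2 (chr7:141635827-141637088, codons 246 to 588, exons 6 and 7) had the highest ranks of the 7, 85.0 to 94.9, with 89.1 and 91.3 in Sham; the groups overlapped and the mean difference was 0.538 points (p = 0.929, two-sided exact permutation test, adjusted p = 0.993). All lists shared 325 nt of it, codons 421 to 529. Dusp10 region 4 (chr1:183769459-183769758, codons 142 to 241, exon 2) ranked 13.1 and 46.9 in Sham, 35.4 and 65.5 at 0 h, 71.1 and 49.9 at 6 h, and 62.2 and 67.5 at 24 h. Its mean difference was 28.6 points (p = 0.0714, two-sided exact permutation test, adjusted p = 0.591), and the Sham lists differed by more than that from each other. Dusp16 region 3 (chr6:134695856-134702865, codons 209 to 325, exons 5 to 7) ranked 20.5 and 66.9 in Sham and 59.7 to 70.7 in MCAO/R. The peak of Sham replicate 1 did not overlap the stretch shared by the other 7 lists, and the like peak of MCAO/R-24 h replicate 2 ranked 19.3, so the low Sham value is of another site. Sham replicate 2 was inside the MCAO/R range, and the difference of 22.1 points had p = 0.143 (two-sided exact permutation test, adjusted p = 0.699).

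Set side by side, 3 of the 7 regions had both 0 h ranks above both Sham ranks (22.7% of all regions) and none below (11% of all regions). At 6 h it was 3 above (26.2%) and none below (13.6%), and at 24 h 4 above (25%) and 1 below (13.3%). The 3 comparisons share the Sham lists. Dusp16 region 1 was above Sham at all 3 times.

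**Figure D4:**
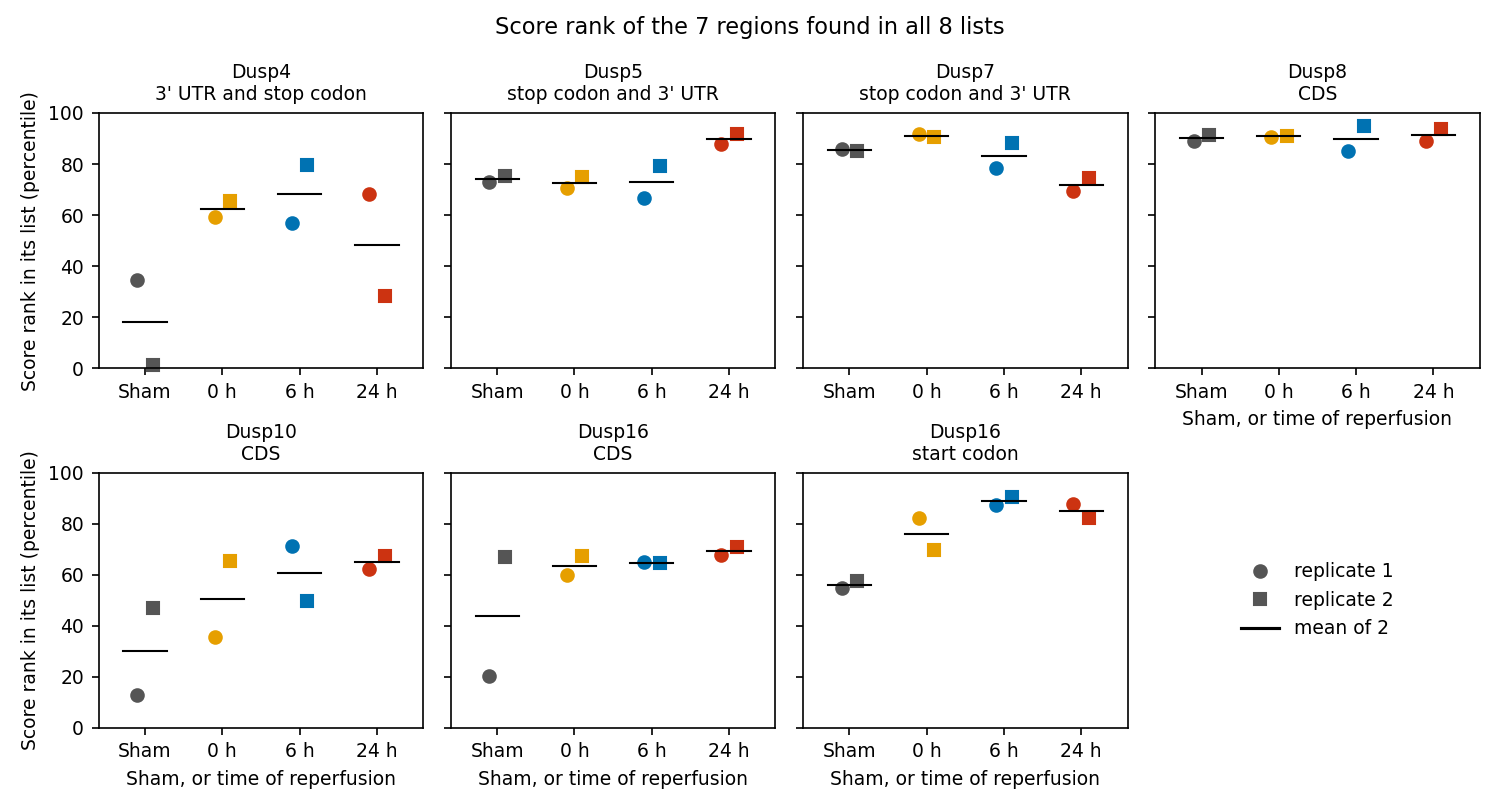
Score rank within its list (y axis, percentile) of the 7 regions found in all 8 lists, for Sham and the 3 reperfusion times (x axis); circles are replicate 1, squares replicate 2 and bars the mean of 2. In the Dusp16 start codon region the 6 MCAO/R lists sit between 69.7 and 90.4, above the Sham lists at 54.6 and 57.4, and in Dusp7 the 24 h lists sit lowest, with peaks on different sides of the stop codon.

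No list held a peak on the opposite strand over an exon of these genes. Annotated antisense exons overlap 50 nt of Dusp6 region 1, 84 nt of Dusp8 region 2 and 38 nt of Dusp10 region 4. Of the 46 regions, 2 lie off the transcripts used for placing, Dusp1 region 1 and Dusp16 region 2, each with 1 peak in 1 list in an exon of another annotated transcript.

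The partners of these phosphatases in the pathway are given by counts, each list beside the same for the 10 genes (8 of 10 with a peak, 6 in every list). Of all 21770 annotated protein-coding genes, 11509 had a peak in any list and 4093 had one in every list. Of 14 MAP kinase genes, those of ERK, JNK and p38 among them, 10 had a peak and 3 had one in every list. Of 7 MAP2 kinase genes, 5 had a peak and 1 in every list, and none had a region gained or lost. All 3 Raf kinase genes had a peak, and 1 had one in every list. Of the feedback inhibitors of the Sprouty and Spred families, 6 of 7 are in the annotation under these names, all 6 had a peak and 5 had one in every list. Of 11 atypical dual specificity phosphatases, relatives that lack the MAP kinase binding domain, 10 had a peak and 2 in every list.

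Of 27 regions of the MAP kinase genes in a Sham list or a list of the time compared, 2, 2 and 4 were lost at 0, 6 and 24 h (1.87%, 2.03% and 2.76% of all regions), and 0, 0 and 2 were gained (3.84%, 4.94% and 3.79% of all regions). Mapk4 had a loss at each time, Mapk6 at 0 h and 24 h, and Mapk14 at 24 h, and the gains were in Mapk7 and Mapk14. The times share the Sham lists, so the same region can be counted at more than 1 of them. A Mapk4 region was lost at 0, 6 and 24 h, and the Mapk6 region was the same at 0 h and 24 h. That Mapk6 region ranked 63.5 and 7.59 in Sham. In Mapk14, which encodes p38 alpha, a substrate of Dusp1, Dusp10 and Dusp16, one region ranked 55.3 and 63.5 in Sham and 54.2 to 73.0 at 0 h and 6 h and was in neither 24 h list. Another Mapk14 region close to it was gained at 24 h, with ranks of 27.0 and 68.9. Of the regions of the feedback inhibitors, 1 of 20, 2 of 16 and 2 of 19 were gained at 0, 6 and 24 h, in Spry1, Spry2 and Spry4, and none was lost. The Spry1 region was the same at 6 h and 24 h. Of the regions of the Raf kinase genes, 1 of 7, 2 of 11 and 1 of 8 were gained and 1 was lost at 24 h, all in Braf, which encodes a kinase at the head of the ERK cascade. One Braf region, counted as gained at both 6 h and 24 h, was in neither Sham list. It ranked 83.7 in MCAO/R-0 h replicate 2, 82.7 and 91.9 at 6 h, and 81.7 and 90.3 at 24 h. Dusp11 gained 1 region at 0 h, of 20 regions of the atypical phosphatases. These counts are small and are descriptions, with no test of the lists.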

How the data were processed

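Peak lists of 8 MeRIP-seq IP libraries were used, 2 for Sham and 2 for each of the 3 MCAO/R times. Per the sources, the authors ran Trim Galore 0.6.7 for trimming, HISAT2 2.2.1 for alignment (build GRCm39), samtools to drop reads that were unmapped or mapped to several places, and exomePeak2 for peaks (p cutoff 0.05, log2 fold change cutoff 0.5; version not given in the sources used here). The RNA was fragmented to lengths stated differently in the paper and in the labels. The deposited column 5 is the peak caller's score, on an undefined scale; the deposited lists hold no counts, so depth is unknown and precision rests on 2 libraries per group.

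Each peak was deposited as 1 block with introns included. Its exonic part was rebuilt from the basic protein-coding transcripts of the gene on its strand with most exonic overlap; 167 of the 173 rebuilt lengths (96.5%) were multiples of 25 nt. Positions are on the transcript of each gene with the longest CDS. Ranks were tested by exact permutation (Python 3.11.15, numpy 2.4.6) with Benjamini-Hochberg adjustment over all 4735 regions in all lists, and the code was tested on simulated peaks and ranks. Sequences are from GENCODE M39 transcripts. The members, gene lists and tests were chosen with earlier results of these data known. Members were named whatever their values; pathway genes were named where a region was gained or lost. Alternatives left out each library, changed the peaks kept, the exons, the joining, the rank and the motif, or permuted within replicate numbers. Replicate numbers were not used as pairs in the main tests. Deviations of same-numbered libraries correlated weakly but always positively between groups, by 0.0336 to 0.0982.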

Additional observations from a re-analysis of the deposited data

Results flagged for a closer look

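Dusp7 region 2, which as joined reaches across the stop codon, lay on opposite sides of Sham at 2 reperfusion times. Its mean score rank was 5.53 percentile points above Sham at MCAO/R-0 h and -13.5 points from Sham at MCAO/R-24 h, with both lists of each time outside the range of the 2 Sham lists. It was picked out because every list of one time moved one way and every list of the other time the opposite way. Taken singly, 22.7% of all regions had both 0 h lists above both Sham lists, and 13.3% had both 24 h lists below both. The share of regions with both patterns was not counted. The difference between the 2 times was not tested by itself, since 2 lists against 2 allow no p under 0.333. The ranks compared were not all of the same bases: both Sham values were of 3' UTR peaks, as was that of MCAO/R-24 h replicate 1 (69.4), whereas the only peak of MCAO/R-24 h replicate 2 (74.5) was in the CDS, where the Sham peak ranked 70.5.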

How the results depend on the processing

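The lists hold no counts, so a missing peak may be a peak under the caller's cutoff, and how far depth limits the calls is unknown. Leaving out 1 library kept 40 to 46 regions of the 10 genes, 6 to 8 of them in all remaining lists. Where the library left out belongs to a group compared, gained or lost rests on 1 list and more regions qualify by construction: gained 1 to 10 at 0 h, 2 to 6 at 6 h and 1 to 7 at 24 h, and lost 1 to 8, 0 to 5 and 0 to 4. The lowest value for lost at 0 h, 1, came without MCAO/R-6 h replicate 1, where Dusp6 was no longer lost. In the higher-scoring 50% of each list, the genes had 12.1 peaks per list on average against 21.6, 19 regions with 4 in all lists, 1 gained (Dusp4) and 1 lost (Dusp8) at 0 h, 3 gained (Dusp1, Dusp4, Dusp10) and 1 lost (Dusp8) at 6 h, and 2 gained (Dusp4, Dusp10) and 0 lost at 24 h. Of the 6 calls of the full lists, the other 5, all but Dusp10 at 6 h, were thus not made there. With 18775 peaks per list, 1 region was gained at 6 h, in Dusp10. Requiring 25 exonic bases, the exons of every transcript, and other ways of joining peaks changed none of the gained and lost counts.

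Without a library, 0 to 2 regions had p under 0.05 among the 4 groups and 1 to 2 between Sham and MCAO/R. For the Dusp16 start codon region, p among the 4 groups was 0.0190 to 0.0762, and over 0.05 without Sham replicate 1, MCAO/R-0 h replicate 2, either 6 h library or MCAO/R-24 h replicate 2. Its difference from Sham stayed between 25.9 and 30.03 points. Without a Sham library that exact permutation test cannot go below p = 0.143 and was not counted. For Dusp7 region 2, p was 0.00952 to 0.190, over 0.05 without any one of 5 libraries, and without MCAO/R-0 h replicate 1 its peaks no longer joined into a region in all lists. Ranking among the peaks of regions in all lists left 1 region under 0.05 among the 4 groups, with p = 0.105 for Dusp16 by exact permutation. Under the replicate block, 0 of 7 regions had p under 0.05, with p = 0.0833 for Dusp16 and p = 0.125 for Dusp7, all by exact permutation with a smallest possible p of 0.0417; for Sham against MCAO/R the block cannot go below 0.0625 and was not counted. GGACT in place of RRACH gave a ratio of 2.22. The causes of these changes were not tested.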
